A study of Mus musculus with 6 samples.

Results

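The Cyp4a genes encode microsomal cytochrome P450 enzymes that add a hydroxyl group to the last, or omega, carbon of fatty acids. The genes followed here were Cyp4a10, Cyp4a14, Cyp4a31, Cyp4a32, Cyp4a12a and Cyp4a12b of the mouse, chosen by their symbols from 39179 gene identifiers counted per library. All 6 were found, and all 6 passed the filter on low counts. The livers came from C57BL/6J mice that ate a high-fat diet, 60% of its energy from fat, for 21 weeks starting at 5 weeks of age. Histology then divided the obese animals into isolated steatosis and nonalcoholic steatohepatitis (NASH), and 3 livers of each class were sequenced from polyadenylated RNA. Diet and strain were shared by all 6 livers, so the comparison is between histological classes and not between treatments, and no lean liver was analysed here. The labels do not say outright that the 3 livers of a class are 3 animals. If they are not, the p-values measure only the spread between these samples.

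Omega-hydroxylation opens a side route of fatty acid breakdown: the alcohol is oxidised by alcohol and aldehyde dehydrogenases to a dicarboxylic acid, which peroxisomes then shorten. In rodent liver Cyp4a10 and Cyp4a14 are classical targets of PPARalpha, the nuclear receptor that fatty acids and fibrate drugs activate, and fasting and fat feeding raise them. Cyp4a12a is instead a male-type gene whose level follows androgen and the male pattern of growth hormone release, and its enzyme also hydroxylates arachidonic acid. The comparison asks how the PPARalpha-induced and the male-type copies stood in NASH against steatosis.

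The 6 genes lie in 1 cluster on chromosome 4 of GRCm38, from Cyp4a12a at chr4:115299046-115332815 and Cyp4a12b at chr4:115411624-115439034 to Cyp4a14 at chr4:115486200-115496142, Cyp4a10 at chr4:115518264-115533649, Cyp4a31 at chr4:115563649-115579015 and Cyp4a32 at chr4:115600969-115621602. Cyp4a14 is on the minus strand and the other 5 are on the plus strand. In the GENCODE M21 annotation 0 of the 6 share exon positions with another gene, and each coding sequence spans 12 exons. The coding sequences fall into 3 kinds. Those of Cyp4a10, Cyp4a31 and Cyp4a32 were 96.0% to 97.2% identical, those of Cyp4a12a and Cyp4a12b were 98.5% identical with 23 differing bases among 1524, and Cyp4a14 was 75.0% to 75.9% identical to the others.

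Stretches of 60 coding bases show how closely the copies resemble each other, which bears on whether a read could be given to 1 of them. Each is the single-exon stretch with the most differences within its set, and capitals mark the positions that are not alike in all members of the set. The first set lies in coding exon 2, at chr4:115519642-115519701 for Cyp4a10, chr4:115565022-115565081 for Cyp4a31 and chr4:115602272-115602331 for Cyp4a32, all on the plus strand.
Cyp4a10: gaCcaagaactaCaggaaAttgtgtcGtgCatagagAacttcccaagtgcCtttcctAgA
Cyp4a31: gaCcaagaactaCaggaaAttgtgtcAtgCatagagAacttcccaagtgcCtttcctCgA
Cyp4a32: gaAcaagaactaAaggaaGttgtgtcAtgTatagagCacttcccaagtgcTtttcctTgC
The aligned stretch of Cyp4a14, on the minus strand at chr4:115494959-115495018, follows with capitals where it differs from Cyp4a10, at 22 positions.
Cyp4a14: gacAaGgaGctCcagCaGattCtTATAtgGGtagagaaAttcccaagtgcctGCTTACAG
The male-type pair is shown in exon 6, on the plus strand at chr4:115326628-115326687 for Cyp4a12a and chr4:115432881-115432940 for Cyp4a12b, with 4 differing positions.
Cyp4a12a: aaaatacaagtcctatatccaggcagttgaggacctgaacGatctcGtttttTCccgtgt
Cyp4a12b: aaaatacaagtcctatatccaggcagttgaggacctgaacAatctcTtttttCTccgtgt

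Reads were 150 bases long, sequenced in pairs. Of all 150-base windows along the transcript, 25.6% of those of Cyp4a12a and 25.9% of those of Cyp4a12b occurred without a difference in the other copy. The share was 4.34% for Cyp4a10, 4.19% for Cyp4a31 and 7.97% for Cyp4a32, whose windows were shared within that set, and 0% for Cyp4a14. Between Cyp4a10 and Cyp4a31 the median coding window held 5 differences, between Cyp4a10 and Cyp4a32 it held 3, and between Cyp4a12a and Cyp4a12b it held 2. How the submitters counted reads that fit several genes is not given in the sources used here, so the split of reads within these sets is uncertain, while Cyp4a14 can be counted by itself.

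Totals ran from 13909238 to 18002095 counts per library. Mitochondrially encoded genes took 62.0% to 83.9% of them, and 4 loci with rRNA-like sequence took 22.3% of NASH 3 and 8.96% of steatosis 2 but at most 1.06% of any other library. The counts left for all other genes were 21.3% to 28.6% of a steatosis library and 15.5% to 17.2% of a NASH library, ranges that did not overlap. Levels below are CPM, a library's counts scaled to a common total, after TMM scaling, which corrects a library's size for genes that take an unusual share of it. In whole liver, fewer cells of a type and less RNA per cell cannot be told apart.

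Among these 6 genes the PPARalpha-induced Cyp4a10, Cyp4a14 and Cyp4a31 were lower in NASH, Cyp4a32 was lower on average without passing the test, and the male-type copies Cyp4a12a and Cyp4a12b overlapped between the groups. Each gene was tested by edgeR's quasi-likelihood test fitted over all 11375 genes that passed the filter, and a gene was called at a Benjamini-Hochberg adjusted p under 0.05. Of the 6 members 3 fell and 0 rose. The members were chosen with earlier results of these data known, which the adjusted p-values do not take into account. Over all tested genes 3.33% were called lower, 1.49% higher and 4.82% in either direction. The median log2 fold change of the 6 was -1.75, and that of all tested genes was 0.0077.

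**Figure D1:**
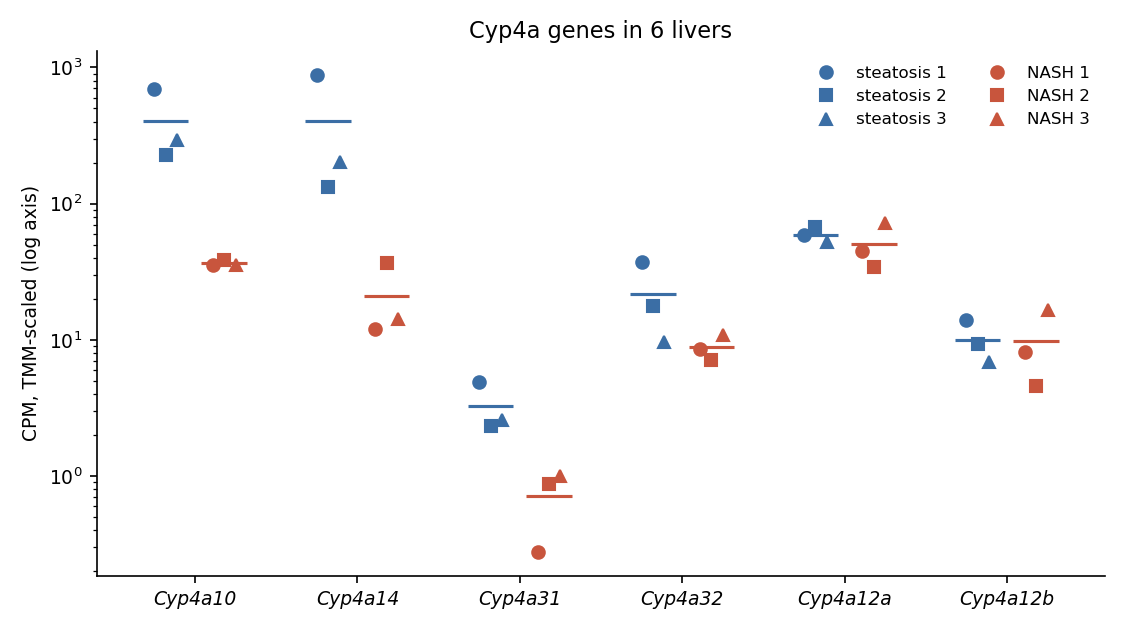
CPM of the 6 Cyp4a genes (log axis) in the 3 steatosis livers (blue) and the 3 NASH livers (red), 1 point per library with the symbol giving the replicate number and a bar for the mean of each group. The red points of Cyp4a10, Cyp4a14 and Cyp4a31 all lie below the blue ones, while those of Cyp4a32, Cyp4a12a and Cyp4a12b overlap them.

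Cyp4a10, a PPARalpha-induced hydroxylase of medium- and long-chain fatty acids, held 698, 227 and 295 CPM in steatosis 1, 2 and 3 and 35.6, 38.5 and 35.4 CPM in NASH 1, 2 and 3. The groups did not overlap, as was so, with NASH below, for 16.2% of all tested genes (29.3% in either direction). The 3 NASH livers were nearly level, the highest at 1.09 times the lowest, whereas the steatosis livers spanned 3.08-fold. The log2 fold change was -3.48 with a standard error (SE) of 0.42, an 11.1-fold lower level in NASH (adjusted p = 0.00374 by edgeR), and 8 of the 11375 tested genes had a larger fall. Without steatosis 1, which held the most, the difference was 7.09-fold (adjusted p = 0.00411 by edgeR), and without the rRNA-rich steatosis 2 and NASH 3 the log2 fold change was -3.74 (0.0259).

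Cyp4a14, the other strongly PPARalpha-induced member and the one whose reads are not shared with a copy, held 884, 133 and 201 CPM in steatosis 1, 2 and 3, against 12.01, 36.7 and 14.2 CPM in NASH 1, 2 and 3. Again all NASH values lay below all steatosis values, but both groups were spread widely, 6.66-fold in steatosis and 3.06-fold in NASH. Steatosis 1 stood far above the other two of its group, and NASH 2 above the other two of its own. The log2 fold change was -4.27 (SE 0.75, adjusted p = 0.015 by edgeR), a 19.3-fold lower level and the second largest fall among tested genes. Without steatosis 1 it was 7.88-fold (adjusted p = 0.0246 by edgeR), and it no longer passed without NASH 1 (adjusted p = 0.0585 by edgeR), NASH 3 (0.0523), or steatosis 2 and NASH 3 together (log2 fold change -4.48, adjusted p = 0.0601).

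Cyp4a31, a close copy of Cyp4a10, was a minor transcript at 4.92, 2.33 and 2.59 CPM in steatosis and 0.278, 0.869 and 0.997 CPM in NASH. These values rest on 80, 39 and 70 reads in steatosis and on 4, 13 and 11 reads in NASH. The groups did not overlap, with a log2 fold change of -2.21 (SE 0.46, adjusted p = 0.0272 by edgeR). It no longer passed without steatosis 1 (adjusted p = 0.106 by edgeR), steatosis 2 (0.0599), NASH 1 (0.0729), NASH 2 (0.0694) or NASH 3 (0.051), and also without steatosis 2 and NASH 3 together (0.0866). Its counts were 0.705% to 1.03% of those of Cyp4a10 in steatosis and 0.78% to 2.82% in NASH, and whether some of them were Cyp4a10 reads was not tested.

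Cyp4a32, the third gene of that set, held 37.5, 17.8 and 9.64 CPM in steatosis and 8.61, 7.16 and 10.8 CPM in NASH. Steatosis 3 lay inside the NASH range, so the groups overlapped. The log2 fold change was -1.29 (SE 0.41, 95% interval -2.21 to -0.37) and did not pass by edgeR's test (adjusted p = 0.0979), although DESeq2 called it (adjusted p = 0.0226). Steatosis 1 carried much of the difference: without it the log2 fold change was -0.62 (adjusted p = 0.34 by edgeR), and without steatosis 3 it was -1.63 and passed (adjusted p = 0.0271 by edgeR). Relative to Cyp4a10, its counts were 3.27% to 7.84% in steatosis and 18.6% to 30.5% in NASH, so the balance of the 2 close copies differed without overlap between the groups. How often other pairs of genes do so was not computed, and whether some of the Cyp4a32 counts were Cyp4a10 reads was not tested.

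Cyp4a12a, the main male-type hydroxylase, held 58.7, 66.9 and 52.0 CPM in steatosis and 44.7, 34.4 and 72.3 CPM in NASH. NASH 3 was the highest of the 6 libraries and NASH 2 the lowest. The log2 fold change was -0.23 with a 95% interval of -0.86 to 0.39 (adjusted p = 0.67 by edgeR), an interval that leaves out a fall of the size seen for Cyp4a10 or Cyp4a14. Its near-identical copy Cyp4a12b held 13.9, 9.28 and 6.82 CPM in steatosis and 8.12, 4.61 and 16.6 CPM in NASH, and again NASH 3 was highest and NASH 2 lowest. For Cyp4a12b the log2 fold change was -0.04 with a 95% interval of -0.95 to 0.87 (adjusted p = 0.966 by edgeR). The counts of Cyp4a12b were 13.1% to 23.7% of those of Cyp4a12a over the 6 libraries. NASH 3 is also the library with the largest rRNA-like share, and the part of that share in its Cyp4a12 values was not tested.

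**Figure D2:**
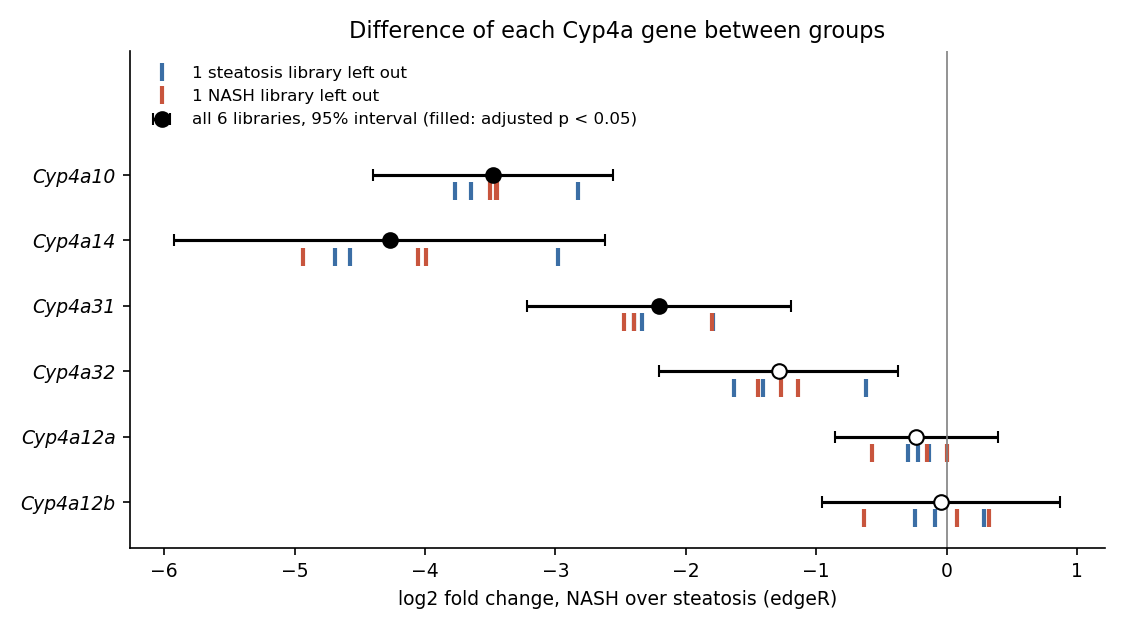
Log2 fold change of NASH over steatosis for each gene by edgeR, with its 95% interval (black, filled where the adjusted p is under 0.05), and below it the values with 1 library left out (blue ticks for steatosis, red for NASH). The ticks of Cyp4a10 run from -3.77 to -2.83, those of Cyp4a12a from -0.57 to 0.00092 and those of Cyp4a12b from -0.64 to 0.32.

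When the counts of near-identical copies were summed, so that the split of reads within a set no longer mattered, Cyp4a10, Cyp4a31 and Cyp4a32 together held 740, 247 and 307 CPM in steatosis and 44.5, 46.6 and 47.2 CPM in NASH. The log2 fold change of the sum was -3.23. Cyp4a12a and Cyp4a12b together held 72.6, 76.1 and 58.8 CPM in steatosis and 52.8, 39.0 and 88.9 CPM in NASH, with a log2 fold change of -0.20. The sums were planned as values only and carry no test.

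Ratios within a library do not depend on how its size was scaled. For every read of Cyp4a12a there were 11.9, 3.39 and 5.67 reads of Cyp4a10 in steatosis 1, 2 and 3, against 0.797, 1.12 and 0.489 in NASH 1, 2 and 3. For Cyp4a14 the ratio was 15.1, 1.98 and 3.86 in steatosis and 0.269, 1.07 and 0.197 in NASH. Neither range overlapped between the groups, so both genes were lower relative to Cyp4a12a in 3 of 3 NASH livers. The ratio of Cyp4a31 did not overlap either, at 0.0349 or more in steatosis and 0.0253 or less in NASH. How often ratios of other genes to Cyp4a12a do so was not computed. By CPM 29.3% of all tested genes did not overlap. The mean log2 ratio differed by -3.01 for Cyp4a10, -3.66 for Cyp4a14 and -2.02 for Cyp4a31 (exact two-sided permutation p = 0.1 each, adjusted p = 0.133 over the 4 ratios). For Cyp4a32 it differed by -0.80 (exact permutation p = 0.3, adjusted p = 0.3), with overlap. With 3 libraries against 3 the smallest p this test can give is 0.1, so it cannot pass 0.05, and unequal change of the 2 kinds is described by these values and not established by a test.

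**Figure D3:**
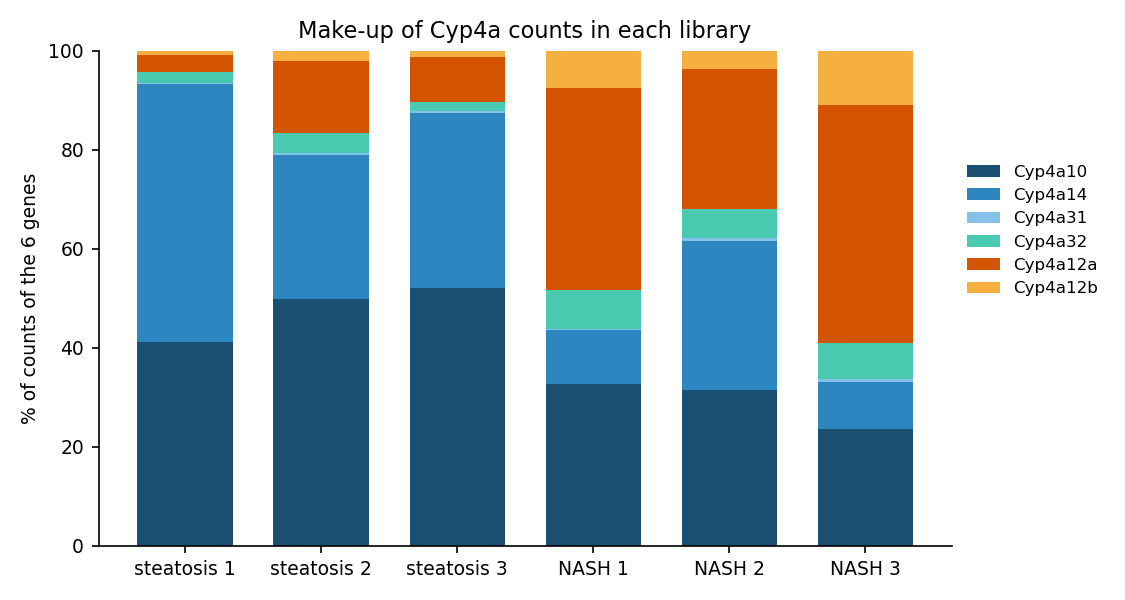
Make-up of the counts of the 6 genes in each library, as percent of their sum. Cyp4a12a and Cyp4a12b (orange) take between 4.28% and 16.7% of the bar in steatosis and between 31.9% and 59.1% in NASH.

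The 6 genes together took 0.767%, 0.225% and 0.297% of the counts outside the mitochondrial and rRNA-like genes in steatosis 1, 2 and 3, against 0.0582%, 0.0672% and 0.0758% in NASH 1, 2 and 3. Cyp4a10 made up 41.1% to 52.1% of the family's counts in steatosis and 23.5% to 32.6% in NASH. Cyp4a12a went from between 3.46% and 14.7% to between 28.1% and 48.1%. Cyp4a14 took 29.1% to 52.1% in steatosis and 9.47% to 30.0% in NASH. The shares of Cyp4a10 and Cyp4a12a thus differed without overlap between the groups, while that of Cyp4a14 overlapped, as the plot of percent by library shows. How often shares within other gene families do so was not computed.

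Levels of different genes were compared per kilobase of annotated exon. In steatosis the order was Cyp4a10 (193 ± 121 CPM per kilobase, SD, n = 3), Cyp4a14 (156 ± 160), Cyp4a12a (24.4 ± 3.07), Cyp4a32 (14.1 ± 9.34), Cyp4a12b (4.18 ± 1.502) and Cyp4a31 (1.31 ± 0.568). Cyp4a10 and Cyp4a14 overlapped in this order, as did Cyp4a12a and Cyp4a32, and the other neighbours did not. In NASH Cyp4a12a came first (20.8 ± 8.09), then Cyp4a10 (17.3 ± 0.833), Cyp4a14 (8.07 ± 5.26), Cyp4a32 (5.76 ± 1.19), Cyp4a12b (4.08 ± 2.57) and Cyp4a31 (0.285 ± 0.153). There Cyp4a12a overlapped with Cyp4a10, Cyp4a14 with Cyp4a32, and Cyp4a32 with Cyp4a12b. By this measure Cyp4a10 ranked 61 of 37566 genes in steatosis and 520 in NASH, and Cyp4a14 ranked 77 and 1125. The annotated transcript of Cyp4a32 is 1530 bases long for a coding sequence of 1527, so it holds almost no untranslated region, and its level per kilobase is less certain for that reason.

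The genes whose profile over the 6 libraries lay nearest to a member were found by the root mean square distance between log2 CPM values, each gene centred on its own mean, among 7797 genes outside the family. Nearest to Cyp4a10 were Acot1 (distance 0.25), a cytosolic acyl-CoA thioesterase, Retsat (0.38), a retinol saturase, Acot4 (0.43), a peroxisomal thioesterase of dicarboxylic acyl-CoAs, Osbpl5 (0.49) and Cyp3a11 (0.52), a drug-metabolising P450. Nearest to Cyp4a14 were Acot1 (0.62), Osbpl5 (0.76), Rab30 (0.84), Retsat (0.92) and Ehhadh (0.92), the peroxisomal bifunctional enzyme. Cyp4a10 and Cyp4a14 lay 0.66 apart, and Cyp4a10 and Cyp4a12a lay 1.63 apart. Acot1 held 40.1, 13.9 and 11.9 CPM in steatosis and 1.60, 2.54 and 1.90 CPM in NASH. Its highest library was steatosis 1, as for Cyp4a10, but the choice by distance builds in such likeness. The nearest to Cyp4a12a were Larp4 (0.072), Scamp1 (0.079), Mrpl35 (0.091), Flot1 (0.098) and Sqor (0.12). Of these 0 were called, which the choice of profiles near a gene that did not pass favours. Distances are a description over 6 libraries and carry no test.

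Among Cyp4 genes other than the 6 members edgeR called none. Of 15 listed, 6 were tested and 0 passed in either direction (median log2 fold change 0.07), and 0 had an unadjusted p under 0.05 by edgeR or a call by DESeq2 or limma-voom. Cyp4f14, a leukotriene hydroxylase of liver, held 7.57, 14.6 and 14.6 CPM in steatosis and 16.6, 14.2 and 18.5 CPM in NASH (log2 fold change 0.42, SE 0.26, adjusted p = 0.362 by edgeR). Cyp4v3 had a log2 fold change of -0.34 (adjusted p = 0.424 by edgeR). Cyp4b1, which borders the cluster, held few reads, between 19 and 70 a library, and had a log2 fold change of 0.10 (adjusted p = 0.904 by edgeR).

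A P450 needs electrons from the reductase encoded by Por, aided by cytochrome b5 from Cyb5a. Por held 322, 178 and 115 CPM in steatosis and 41.6, 92.5 and 99.7 CPM in NASH, all lower, with a log2 fold change of -1.40 (SE 0.42) that did not pass (adjusted p = 0.0833 by edgeR). Cyb5a had a log2 fold change of -0.88 (adjusted p = 0.0761 by edgeR), also without overlap. Over all tested genes 16.2% had NASH below steatosis without overlap. Of the 4 redox partners tested edgeR called 0, with 2 at an unadjusted p under 0.05, and DESeq2 called Por and Cyb5a. Among 7 tested alcohol and aldehyde dehydrogenases of the route 3 fell and 0 rose, with a median log2 fold change of -0.34. Aldh3a2, the fatty aldehyde dehydrogenase that makes the acid, held 155, 117 and 86.4 CPM in steatosis and 42.8, 39.5 and 30.2 CPM in NASH (log2 fold change -1.67, SE 0.27, adjusted p = 0.0121 by edgeR). Adh1, the main liver alcohol dehydrogenase, had a log2 fold change of -1.62 (adjusted p = 0.00876 by edgeR). Both calls stood in each of the 6 fits with 1 library left out but not without steatosis 2 and NASH 3 together (adjusted p = 0.114 by edgeR and 0.111). The third was Adh5 at -0.86 (adjusted p = 0.0455 by edgeR), which passed only without steatosis 3 (0.0459) among the 6 fits with 1 library left out.

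Genes of peroxisomal oxidation were lower on average as well: of 19 tested genes 8 fell and 0 rose, with a median log2 fold change of -1.15. The list is wider than the step that shortens dicarboxylic acids. It also holds genes of long-chain acids and Pex11a, which was among those called. Acot4 held 21.1, 11.3 and 6.41 CPM in steatosis and 1.46, 1.40 and 1.72 CPM in NASH (log2 fold change -3.07, SE 0.42, adjusted p = 0.00608 by edgeR). Acot1, Acot3 and Acot4 are near relatives in 1 gene family, and reads shared among them cannot be told apart here. Without steatosis 1, 2 or 3 the number of called genes in this list was 3, 3 and 9, and without NASH 1, 2 or 3 it was 3, 4 and 2. Without steatosis 2 and NASH 3 together it was 0.

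Of 27 other PPARalpha targets of liver, all tested, 11 fell and 0 rose, with a median log2 fold change of -1.06. Acot1 fell by 3.43 on the log2 scale (SE 0.47, adjusted p = 0.00642 by edgeR), Cd36, a fatty acid transporter, had -1.63 (0.0128), Vnn1, a pantetheinase, -1.38 (0.0109) and Acadm, the medium-chain acyl-CoA dehydrogenase, -1.42 (0.0153). Acadm no longer passed when steatosis 1, steatosis 2, NASH 1 or NASH 3 was left out (adjusted p = 0.0541 by edgeR, 0.0612, 0.0574 and 0.0516). The number called was 3, 4 and 13 without steatosis 1, 2 or 3, and 3, 6 and 3 without NASH 1, 2 or 3, and 1 without steatosis 2 and NASH 3 together. Ppara itself, which encodes the receptor, held 12.5, 12.4 and 7.37 CPM in steatosis and 3.19, 6.42 and 4.99 CPM in NASH, without overlap, as for 16.2% of all tested genes with NASH below. Its log2 fold change of -1.14 (SE 0.29) did not pass (adjusted p = 0.0543 by edgeR), and it passed without steatosis 3 (0.0348). Of the 14 tested genes of the receptor, its partners and coregulators 0 were called (median 0.10), 3 had an unadjusted p under 0.05, limma-voom called 0, and DESeq2 called 1, Ppara. Rxra, the partner with which PPARalpha binds DNA, had a log2 fold change of -0.23 (adjusted p = 0.548 by edgeR).

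**Figure D4:**
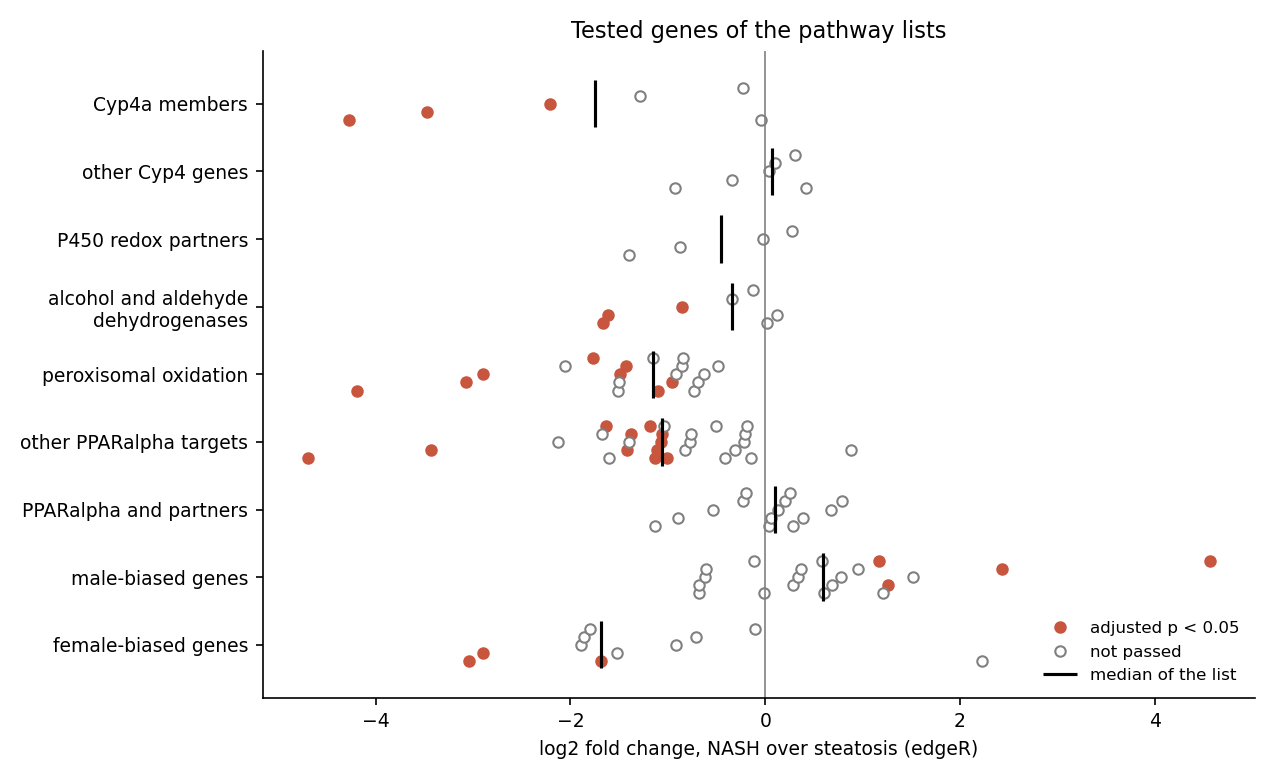
Log2 fold change of NASH over steatosis by edgeR for every tested gene of 9 lists (filled red, adjusted p under 0.05; open grey, not passed), with a vertical bar at the median of each list. The 6 Cyp4a genes are left out of the lists of male- and female-biased genes. The medians lie at -1.75 for the Cyp4a genes, -1.15 for peroxisomal oxidation, -1.06 for other PPARalpha targets and 0.59 for male-biased genes.

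Sex, on which Cyp4a12 expression depends, is not given in the sources used here, so transcripts of the sex chromosomes were read as well. Xist, which is transcribed from the inactive X of females, had at most 1 read in any library, and Ddx3y, encoded on the Y, had between 59 and 259 reads in every library. By these transcripts every library, in both groups, was of the male type. Among 20 tested male-biased genes other than the Cyp4a12 copies, 4 rose and 0 fell, with a median log2 fold change of 0.59. Selenbp2 held 22.8, 78.8 and 65.0 CPM in steatosis and 379, 133 and 384 CPM in NASH (adjusted p = 0.0275 by edgeR), and the others were C6, C9 and Hsd3b5, of which Hsd3b5 overlapped between the groups. DESeq2 called 6 of the list, among them Cyp2d9, which it called lower in NASH. Cyp2d9 lay below steatosis in 3 of 3 NASH libraries, as did 16.2% of all tested genes. Its log2 fold change of -0.61 did not pass by edgeR (adjusted p = 0.138). Reads of Selenbp2 and Hsd3b5 may be shared with near-identical paralogs. The number called was 1, 0 and 1 without steatosis 1, 2 or 3 and 0, 3 and 0 without NASH 1, 2 or 3. For Selenbp2, as for Cyp4a12a and Cyp4a12b, NASH 2 was the lowest NASH library. Elovl3, an androgen-dependent fatty acid elongase, had a log2 fold change of -0.62 (adjusted p = 0.489 by edgeR). The sign of that value rested on steatosis 1, at 49.8 CPM against 13.2 and 11.2 CPM in steatosis 2 and 3. Without steatosis 1 the log2 fold change was 0.41 (adjusted p = 0.41 by edgeR).

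Of 21 listed female-biased genes other than the Cyp4a members, 11 passed the filter on low counts. Among these 3 fell and 0 rose (Fmo2, Cyp2b13 and Acot3), with a median of -1.69. Acot3 is also counted among the peroxisomal genes. Cyp2b13 held 43, 70 and 49 reads in steatosis but 3, 11 and 0 in NASH. It passed the filter on its steatosis reads, which favours a fall. Cyp4a10 and Cyp4a14 were themselves listed as female-biased and left out of the count. The PPARalpha and sex-bias labels of the members therefore cannot be told apart here. The number called lower was 1, 1 and 3 without steatosis 1, 2 or 3 and 1, 4 and 1 without NASH 1, 2 or 3. Cyp17a1, a steroid hydroxylase of this list, was higher in each NASH library than in any steatosis library, at 0.861, 0.299 and 0.556 CPM against 1.11, 4.95 and 1.90 CPM. The same order held for 13.1% of all tested genes. At 2.22 on the log2 scale Cyp17a1 did not pass (adjusted p = 0.0534 by edgeR), and it was called higher without NASH 1 (0.0434). Of the 14 tested genes of growth hormone and androgen signalling 0 were called, 1 had an unadjusted p under 0.05, limma-voom called 0, and DESeq2 called 1, Prlr. Stat5b, the transducer of growth hormone, had a log2 fold change of 0.01 (adjusted p = 0.988 by edgeR), and the receptor Ghr had -0.47 (0.278).

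Markers of hepatocytes were abundant in every library and 0 of 7 were called (0 also at an unadjusted p under 0.05 by edgeR, and 0 by DESeq2). Of 7 markers of the hepatocytes around the central vein 3 fell (Cyp1a2, Cyp2e1 and Slc1a2) and 0 rose. DESeq2 and limma-voom each called 5 (Glul, Cyp2e1, Cyp1a2, Oat and Slc1a2), and 5 had an unadjusted p under 0.05 by edgeR. The summed level of the 7 was 2212 to 2643 CPM in steatosis and 892 to 1272 CPM in NASH. Of 7 markers of hepatocytes around the portal vein 2 rose (Gls2 and Sds) and 0 fell, with summed levels of 390 to 915 and 371 to 901 CPM. DESeq2 called 3 of the portal markers (Sds, Gls2 and Ass1) and limma-voom 2 (Sds and Gls2). The part of the central and portal markers in the Cyp4a result was not tested. The number of central markers called was 0, 0 and 2 without steatosis 1, 2 or 3 and 1, 0 and 0 without NASH 1, 2 or 3, and for the portal markers it was 0, 0 and 0 and 2, 0 and 0. Of 4 markers of kidney proximal tubule, another tissue rich in Cyp4a, the summed level was at most 0.453 CPM, and Kap was at 0 in all 6 libraries. Of the other cell types listed, 8 macrophage, 6 sinusoidal endothelial, 3 cholangiocyte and 2 adipocyte markers were tested and 0 were called by edgeR or DESeq2 (1, 2, 1 and 1 at an unadjusted p under 0.05 by edgeR). Among 6 stellate cell markers 1, Dcn, fell, with a call that was lost in each of the 6 fits with 1 library left out (adjusted p = 0.0585 to 0.115 by edgeR). The markers of T, B and NK cells and of neutrophils were too low to test, with summed levels of at most 2.10 CPM. Of the adipocyte list, Cfd held 127, 55.3 and 33.7 CPM in steatosis and 41.1, 26.9 and 11.7 CPM in NASH, with overlap. Its log2 fold change of -1.43 did not pass (adjusted p = 0.128 by edgeR). Fabp4 had a log2 fold change of 0.22 (adjusted p = 0.667 by edgeR), while Adipoq and Plin1 were at 0 in every library.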

How the data were processed

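Polyadenylated RNA of 6 mouse livers, 3 with isolated steatosis and 3 with NASH by the group label, was sequenced as 150-base pairs. The deposited values are raw read counts per gene, 1 table per library, made with TopHat2 and HTSeq on mm10 (GRCm38), per the submitters' processing notes. For the versions, strand setting, annotation release and reads fitting several genes, a description is not given in the sources used here. Symbols were matched to 37607 of 39179 identifiers.

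Genes passing edgeR's filterByExpr were scaled by TMM and tested by the quasi-likelihood F test (edgeR 4.0.16, R 4.3.3) with Benjamini-Hochberg adjustment over all 11375 genes. SEs are approximate: the log2 fold change divided by the root of F. The fit was tested on simulated data. Alternatives were DESeq2 1.42.0, limma-voom (limma 3.58.1), other scalings and filters, the replicate number as a block, and leaving libraries out. Ratios were compared by exact permutation tests (scipy 1.17.1). Copies were compared in GENCODE M21 transcripts, with coding sequences aligned by MAFFT. No 2 libraries of the same group agreed within sampling noise. Counts left outside the mitochondrial and rRNA-like genes numbered 2185922 to 5149189 a library. In steatosis libraries more counts stand behind each gene.

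Named genes were all members, up to 4 genes per list with the smallest p, a set panel, and the 5 genes nearest to Cyp4a10, Cyp4a14 and Cyp4a12a. The members and lists were chosen with earlier results of these data known. Values of some panel genes are not reported here.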

Additional observations from a re-analysis of the deposited data

How the results depend on the processing

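Cyp4a10 kept its direction under every alternative run, with log2 fold changes from -3.77 to -2.83, and its call under each that carries a test (the summed copies carry none). Leaving out 1 library gave -4.93 to -2.98 for Cyp4a14, -2.48 to -1.79 for Cyp4a31, -1.63 to -0.62 for Cyp4a32, -0.57 to 0.00092 for Cyp4a12a and -0.64 to 0.32 for Cyp4a12b. Without steatosis 2 and NASH 3, Cyp4a14 had -4.48 and Cyp4a31 -2.67, neither passing. Cyp4a32 passed with no filter (-1.32) and by DESeq2 (-1.29). Summed with its close copies, Cyp4a31 or Cyp4a32 gave -3.23. Cyp4a12b changed sign, to 0.07, when libraries were scaled, without TMM, by their size outside the mitochondrial and rRNA-like genes.

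The number of genes called was 548, and it was 1447 with no filter, 879 by DESeq2, 1229 at an adjusted p under 0.1, 114 to 468 with 1 library left out and 36 without steatosis 2 and NASH 3. The share of calls that were lower was 69.2%, but 55.6% under that scaling, which changes the library size and leaves out TMM at once (185 higher, 232 lower, with the median of all genes at 0.12) and 52.8% without those 2 libraries. With 1 library left out, lists lower in NASH gave 2 to 3 calls for dehydrogenases, 2 to 9 for peroxisomal genes, 3 to 13 for PPARalpha targets, 2 to 3 for eicosanoid genes, 1 to 4 for female-biased genes and 0 to 2 for central markers, and lists higher in NASH gave 0 to 3 for male-biased genes and 0 to 2 for portal markers. Without steatosis 2 and NASH 3 these were 0, 0, 1, 0, 1, 0, 0 and 0. These list counts were chosen after seeing the data. Apart from the smaller number of libraries, the cause was not tested.

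With the replicate number as a block, 466 genes were called, Cyp4a10 had -3.30, Cyp4a14 -3.92, Cyp4a31 -2.15 and Cyp4a32 -1.11, and no member's call changed. Whether same-numbered libraries shared more than a number is not known. Their deviations correlated at 0.035, -0.012 and 0.071, and those of libraries with unlike numbers at -0.098 to 0.068. Not every library correlated best with its own number. With 3 libraries a group these values cannot decide it. Depth limits Cyp4a31 most, with 28 reads in NASH.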

Other observations

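Arachidonic acid, which the Cyp4a12 enzymes hydroxylate at its end, is also epoxidised by Cyp2c and Cyp2j enzymes, and epoxide hydrolases open the products. Of 10 tested genes of these 2 kinds, 4 fell and 0 rose, and the median log2 fold change was -0.996. Ephx1, the microsomal epoxide hydrolase, had a log2 fold change of -1.55 (adjusted p = 0.0058 by edgeR), Cyp2c29 -1.37 (0.0121), Cyp2c37 -1.29 (0.0181) and Cyp2c50 -0.93 (0.04). Ephx1 and Cyp2c29 passed in each of the 6 fits with 1 library left out. Cyp2c50 passed in 0 of them. Cyp2c37 was lost without steatosis 1 (adjusted p = 0.0729 by edgeR), NASH 1 (0.0547), NASH 2 (0.0586) or NASH 3 (0.0569). Without steatosis 2 and NASH 3 together 0 of the 4 passed. The number called was 2, 3 and 3 without steatosis 1, 2 or 3 and 2, 2 and 2 without NASH 1, 2 or 3. The Cyp2c genes are a family of near-identical copies, so their reads may be shared. The soluble hydrolase Ephx2 had a log2 fold change of -1.06 and did not pass by edgeR (adjusted p = 0.0544), although DESeq2 and limma-voom called it. Of the 10 tested genes DESeq2 called 7 and limma-voom 6.

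Within the Cyp4a cluster itself, Cyp4a29 and Cyp4a30b had 0 counts in all 6 libraries.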
